A study of Mus musculus with 16 samples.

Results

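Synaptic vesicle release was followed through 10 genes of mouse spinal cord. They were the synaptotagmins Syt1 and Syt4, the calcium sensor Ncs1 and the fusion proteins Stx1a, Stx3, Vamp2 and Vamp7. The rest were the vesicle proteins Syp and Syn2 and the presynaptic protein Sncb. Every probe set whose only platform gene symbol is one of these 10 was taken. That gave 14 of the 12488 probe sets on the array, or 10 of the 8252 genes that have a probe set of their own. Of these, 11 passed a filter on low values and were tested, with at least 1 for each of the 10 genes. The other 3 (2 of Stx3 and 1 of Vamp7) lay near the detection floor and are described from their values.

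Total RNA of spinal cord was hybridised to 16 arrays of 1 colour. The spastic group holds 6 arrays titled 2 to 6 months, from mice of the spastic line; the spastic allele is recessive and lies in Glrb, which encodes the glycine receptor's beta subunit, and homozygous mice are rigid and tremble. The B6C3Fe group, named for a hybrid stock, holds 2 arrays of males titled 1 month. The control group holds 8 arrays titled 9 and 12 months, with both sexes at each age; the labels give no genotype or strain for it, and name no treatment of any mouse. Arrays titled alike except for the letter (a or b) were combined by their mean, leaving 5 spastic samples, 1 B6C3Fe sample and 4 control samples. Whether such arrays, or the samples themselves, are separate animals is not stated, so p-values set each difference against the spread between these samples. The groups differ in titled age as well as in genotype or stock, and for spastic against control age and genotype cannot be told apart by group alone.

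A nerve terminal releases transmitter when a vesicle fuses with the plasma membrane. A SNARE on the vesicle, typically Vamp2, pairs with the plasma membrane SNAREs Stx1a and Snap25, and Syt1 on the vesicle senses the calcium that enters with an action potential and triggers fusion. Syp is an abundant protein of the vesicle membrane, synapsins such as Syn2 tether vesicles into a reserve pool, and Sncb, beta-synuclein, is a soluble protein of the terminal. Syt4 and Vamp7 are better known from dense-core and endosomal vesicles and from outgrowing neurites, Stx3 from ribbon synapses, dendrites and epithelia, and Ncs1 as a soluble calcium sensor that affects release and ion channels. In the spinal cord this machinery serves glycinergic, GABAergic, glutamatergic and cholinergic terminals alike, and an RNA level in whole cord adds up the cell bodies that lie there.

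The RefSeq promoter table (GRCm38.p6; 250 bases before to 50 after each gene's start) held 7 of the 10 genes in 9 entries; Syt4, Vamp2 and Vamp7 had none. Shown are 2 genes that were lower in spastic than in control cord (Syt1, with both of its annotated starts, and Stx3) and 2 that were higher (Syp and Sncb). Capitals mark motif letters found on either strand: the GC box GGGCGG, the cAMP response element TGACGTCA, CCAAT and TATAAA. No motif matches overlapped in these windows.
Syt1, downstream start, chr10:109009062-109009361, minus strand: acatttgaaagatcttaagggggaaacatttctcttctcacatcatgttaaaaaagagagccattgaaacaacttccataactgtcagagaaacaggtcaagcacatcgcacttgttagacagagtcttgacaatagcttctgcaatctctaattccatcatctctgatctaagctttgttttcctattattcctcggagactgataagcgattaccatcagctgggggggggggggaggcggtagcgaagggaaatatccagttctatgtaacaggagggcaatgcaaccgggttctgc
Syt1, upstream start, chr10:109010926-109011225, minus strand: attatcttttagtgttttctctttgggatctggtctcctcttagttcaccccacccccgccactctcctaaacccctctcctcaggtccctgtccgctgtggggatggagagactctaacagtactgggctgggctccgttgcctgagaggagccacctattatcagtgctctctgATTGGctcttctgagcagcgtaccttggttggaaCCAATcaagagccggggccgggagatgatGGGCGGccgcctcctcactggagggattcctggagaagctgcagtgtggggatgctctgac
Stx3, chr19:11819354-11819653, minus strand: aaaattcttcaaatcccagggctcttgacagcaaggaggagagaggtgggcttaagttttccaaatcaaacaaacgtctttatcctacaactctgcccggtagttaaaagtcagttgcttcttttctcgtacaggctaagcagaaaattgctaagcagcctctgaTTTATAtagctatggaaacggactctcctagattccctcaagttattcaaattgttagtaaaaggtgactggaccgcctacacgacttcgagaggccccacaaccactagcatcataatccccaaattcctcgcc
Syp, chrX:7638330-7638629, plus strand: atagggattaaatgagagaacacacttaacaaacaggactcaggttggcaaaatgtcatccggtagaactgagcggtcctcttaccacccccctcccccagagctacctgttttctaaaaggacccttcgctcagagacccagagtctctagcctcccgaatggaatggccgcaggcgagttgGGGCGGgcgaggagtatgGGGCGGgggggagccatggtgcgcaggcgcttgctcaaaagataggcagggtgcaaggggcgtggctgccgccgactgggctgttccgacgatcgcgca
Sncb, chr13:54766546-54766845, minus strand: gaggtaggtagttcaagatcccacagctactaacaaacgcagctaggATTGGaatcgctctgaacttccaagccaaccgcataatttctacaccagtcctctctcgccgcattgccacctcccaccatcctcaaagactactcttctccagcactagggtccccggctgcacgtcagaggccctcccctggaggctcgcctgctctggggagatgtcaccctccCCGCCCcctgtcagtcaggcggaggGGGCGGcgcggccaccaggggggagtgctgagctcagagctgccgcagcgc
The upstream Syt1 start has 1 GC box and 2 CCAAT motifs in a sequence of 56.7% GC, and the downstream start has none of the 4 motifs and 44% GC. The Syp window holds 2 GC boxes (59% GC), and the Sncb window holds 2 GC boxes and 1 CCAAT motif (62% GC). The Stx3 window has 44% GC and 1 TATAAA, read on the opposite strand. Among the 32851 promoters of the table with a full window of 300 bases, 35.7% hold a GC box, 37.4% CCAAT, 13.6% TATAAA and 1.79% the cAMP response element. These matches describe the letters of the windows; the arrays do not measure transcription start sites, and the start used in spinal cord was not measured.

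On the arrays, log2 intensities were floored at 5.93 (an intensity of 60.9), and 14.7% to 24.1% of the values of an array lay at or under it. Glrb had log2 intensities of 9.92 to 11.11 on the spastic arrays, against 12.92 to 12.98 on the B6C3Fe arrays and 12.70 to 13.30 on the control arrays, so its level follows the labels. The 2 spastic arrays titled male had the Xist level of females (10.37 and 10.54) and had Eif2s3y, a Y-linked gene, at the floor, while the B6C3Fe and control arrays titled male had Eif2s3y at 8.50 to 9.09. Calls that were lost without those 2 spastic samples are named further on. One control array, array a of the 9-month females, stood apart from its partner for several members, as described below. The summed intensity of the neuronal markers, all of them above the floor on at least 1 array, was 107243 to 136838 on spastic arrays, 101167 to 103549 on B6C3Fe arrays and 97113 to 126203 on control arrays. Among their 20 probe sets tested, 2 rose in spastic against control cord, Tubb3 by 0.51 and Chga by 0.43 on the log2 scale. Another 2 fell (Map2, difference -2.85, and Nefl, -1.10). Over all probe sets tested, 8.98% rose and 10.6% fell, so these counts say nothing particular of the list. The summed ranges of spastic and control arrays overlapped, though the brightest probe sets weigh most in a sum. Map2 was at the floor on both spastic arrays of 2-month females and on array a of the 9-month female controls. In whole tissue, fewer cells of a type and less RNA per cell cannot be told apart.

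In spastic against control cord, 10 of the 11 probe sets tested passed an adjusted p of 0.05 (limma, Benjamini-Hochberg over all 7453 probe sets tested). These were 5 higher, where the background over all probe sets is 8.98%, and 5 lower, where it is 10.6%, and they cover 9 of the 10 genes. Syt1, Syt4, Stx3, Syn2 and Vamp7 fell, while Stx1a, Syp, Sncb and both Vamp2 probe sets rose, and Ncs1 did not pass the test. The sample values of the spastic and control groups did not overlap for 8 of the 11, against 19.4% of all probe sets tested. The members' median absolute difference was 0.83 on the log2 scale, against 0.24 over all probe sets tested. Spastic means of Syt1 and Vamp7 lie under the filter's 7.62, so both passed it only through the other groups and had to differ; these counts and medians describe the 11 and test nothing about them as a set.

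**Figure D1:**
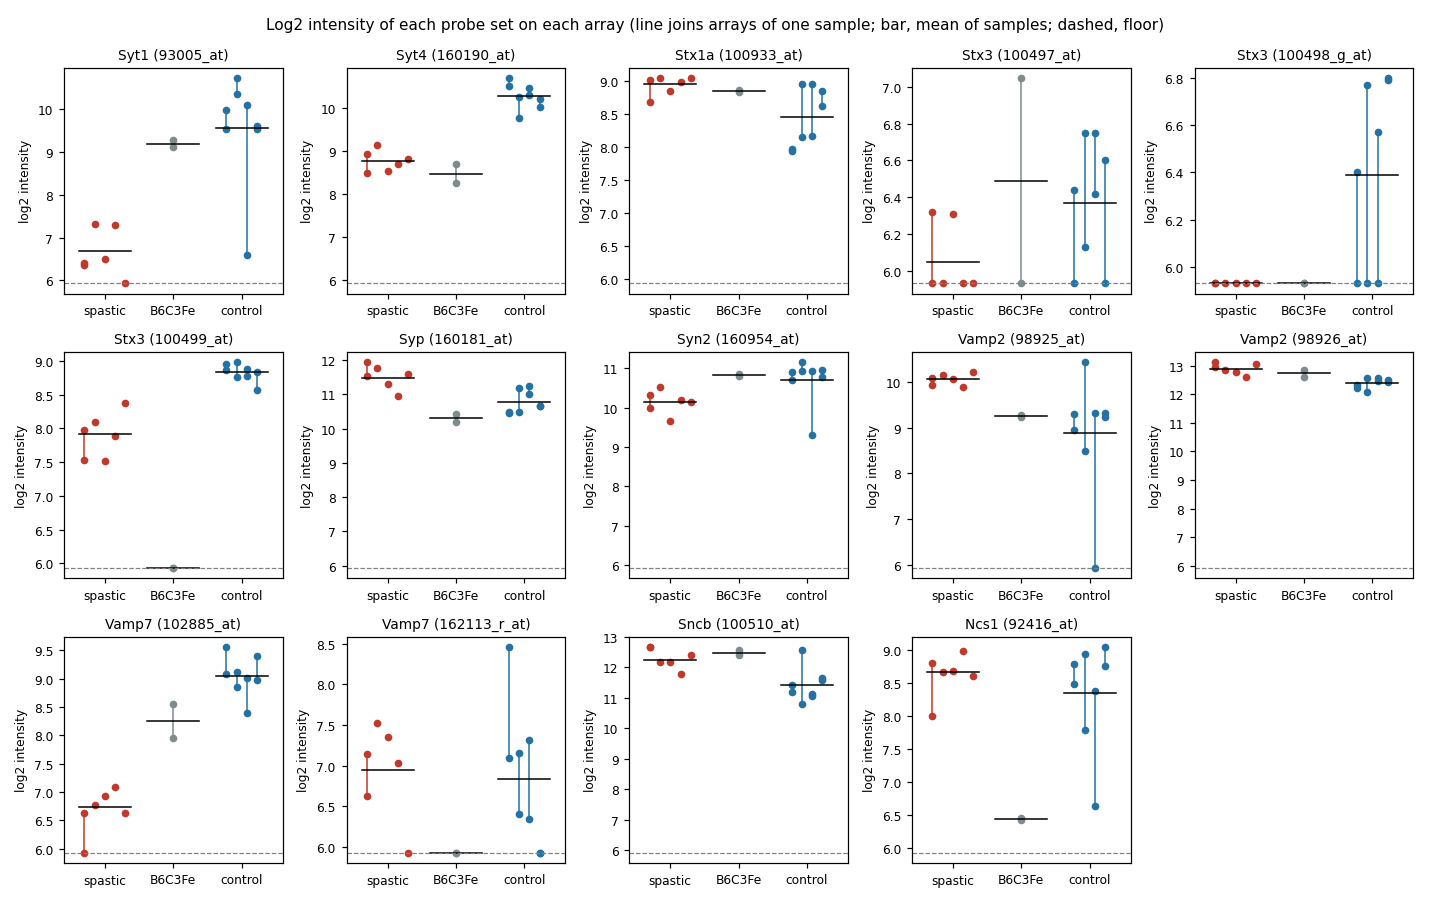
Log2 intensity (vertical axes, which differ between panels) of the 14 probe sets on each array of the spastic, B6C3Fe and control groups; lines join arrays of 1 sample, bars are means over samples and the dashed line is the floor of 5.93. Spastic arrays lie below all but 1 control array for Syt1 and below every control array for Syt4 and Vamp7 102885_at. For Vamp7 162113_r_at the groups overlap. Both B6C3Fe arrays sit on the floor for Stx3 100499_at.

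Spastic values below run in the order Spa1 and Spa2 (2-month females), sev (3 months), 3+ (3 months or more) and M (6-month female, 2 arrays), and control values in the order 9-month female, 9-month male, 12-month female and 12-month male. Syt1, the main calcium sensor of fast release, had log2 intensities of 6.49, 7.29, 7.32, 5.93 and 6.37 in the spastic samples, against 9.19 in B6C3Fe and 8.33, 9.56, 9.75 and 10.53 in the control samples. Every spastic sample was below every other sample, and the 3+ sample lay at the floor. The mean was 6.68 ± 0.61 in spastic cord (SD, n = 5) and 9.55 ± 0.91 in control cord (SD, n = 4). The fitted difference was -2.83 (SE 0.41, adjusted p = 0.00211), a level 7.09-fold lower in spastic cord, and it is understated where the floor applies.

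Among the controls, 1 array sets much of the spread of Syt1: array a of the 9-month females read 6.59 and its partner, array b, 10.08. The low array lies within the range of the spastic arrays. Leaving it out changed the difference of Syt1 to -3.30 (adjusted p = 0.000115). That array also had the highest ratio of 3-prime to 5-prime signal for Pcx (a control transcript used to judge RNA integrity) among controls, 2.72 on the log2 scale, against 1.31 to 2.09 on the other control arrays and 2.00 to 2.98 on the spastic arrays.

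Syt4, an atypical synaptotagmin, had 8.53, 8.71, 9.14, 8.81 and 8.70 in the spastic samples, against 8.48 in B6C3Fe and 10.37, 10.10, 10.60 and 10 in the control samples. The spastic and B6C3Fe samples were close to each other and all below the controls. The means were 8.78 in spastic and 10.27 in control cord, a difference of -1.49 (SE 0.17, adjusted p = 0.000659) or 2.81-fold. In the fit that placed B6C3Fe among the controls with log2 of titled age as a term, the difference was -0.63 and no longer passed (adjusted p = 0.0914). The B6C3Fe sample was the only one under 9 months among the controls of that fit, so the age term leans largely on it. Syt4 thus separated the 2 younger groups from the older controls, and titled age and genotype cannot be told apart for it.

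Ncs1 had 8.68, 8.99, 8.67, 8.61 and 8.40 in the spastic samples, against 6.44 in B6C3Fe and 7.50, 8.90, 8.64 and 8.36 in the control samples. Spastic and control values overlapped, with a difference of 0.34 (SE 0.26, adjusted p = 0.389). The B6C3Fe sample was the lowest of the 10, and its 2 arrays read 6.43 and 6.45, near the floor of 5.93. Spastic minus B6C3Fe was 2.37 (SE 0.45, adjusted p = 0.0306), and B6C3Fe minus control was -2.03 and did not pass (adjusted p = 0.086). The spastic call against B6C3Fe was lost in 4 of the 9 leave-one-out fits, with differences of 2.27 to 2.48 and adjusted p of 0.0507 (without Spa1), 0.0533 (without the 9-month male control), 0.0585 (without 3+) and 0.0725 (without sev). The spastic call was also lost with the floor at the 40th percentile (1.04, adjusted p = 0.121) and with no filter (2.37, adjusted p = 0.0634). B6C3Fe minus control passed without the 9-month female control, at -2.18 (adjusted p = 0.0322), and in 6 of 14 other alternatives.

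Vamp7, the vesicle SNARE of late endosomes and of tetanus-insensitive fusion, also fell. Its probe set 102885_at had 6.93, 7.09, 6.77, 6.63 and 6.27 in the spastic samples, against 8.25 in B6C3Fe and 8.71, 9.19, 9.33 and 8.98 in the control samples. The B6C3Fe sample lay between the groups, and no spastic value reached it. The means were 6.74 in spastic and 9.05 in control cord, a difference of -2.31 (SE 0.23, adjusted p = 0.000376) or 4.97-fold. This call was kept in all 18 other alternatives that tested it, with differences of -2.49 to -1.36, and in all 9 leave-one-out fits.

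The second Vamp7 probe set, 162113_r_at, read 7.35, 7.03, 7.52, 5.93 and 6.88 in the spastic samples, against 5.93 in B6C3Fe and 6.83, 5.93, 7.77 and 6.78 in the control samples. It lay near the floor in each group and was below the filter. In the fit with no filter, spastic minus control was 0.05 (SE 0.40), so the probe sets of Vamp7 disagree, and the fall rests on 102885_at.

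Vamp2, the main vesicle SNARE of transmitter release, rose on both of its probe sets. Probe set 98925_at had 10.07, 9.90, 10.15, 10.21 and 10.01 in the spastic samples, against 9.25 in B6C3Fe and 7.63, 9.29, 9.13 and 9.46 in the control samples. The 5 spastic samples spanned a narrow range above all others. The difference was 1.25 (SE 0.27, adjusted p = 0.00976), with means of 10.07 in spastic and 8.88 in control cord. The lowest control value comes from the same array a of the 9-month females, which read at the floor (intensity 26.7) while array b read 9.33; without that array the difference was 0.78 (SE 0.10), smaller and still called. In the 12-month males too, array a and array b differed, at 8.49 and 10.43, and array b was above every spastic array.

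Vamp2 probe set 98926_at had 12.79, 12.60, 12.85, 13.06 and 13.03 in the spastic samples, against 12.73 in B6C3Fe and 12.51, 12.45, 12.27 and 12.33 in the control samples. Every spastic sample was above every control sample, and B6C3Fe lay among the spastic ones. The difference was 0.48 (SE 0.12, adjusted p = 0.0157), or 1.40-fold. It was lost without the 12-month female control (0.45, adjusted p = 0.0598). Both probe sets gave the same direction with different sizes.

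Stx1a, the plasma membrane SNARE of transmitter release, had 8.85, 8.98, 9.05, 9.05 and 8.85 in the spastic samples, against 8.85 in B6C3Fe and 8.56, 8.74, 7.96 and 8.56 in the control samples. The spastic samples were all above the controls by a narrow margin, and B6C3Fe equalled the lowest spastic sample to 2 decimals. The difference was 0.53 (SE 0.16, adjusted p = 0.0371). In 8 of the 9 leave-one-out fits it no longer passed; the differences in these were 0.37 to 0.58, and the adjusted p was 0.0573 to 0.112, with the highest without the 12-month female control. The exception was the fit without the 9-month female control.

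Stx3, a syntaxin of ribbon synapses and epithelia, separated the 3 groups. Its probe set 100499_at had 7.51, 7.89, 8.09, 8.38 and 7.75 in the spastic samples, against 5.93 in B6C3Fe and 8.83, 8.71, 8.91 and 8.87 in the control samples. Both B6C3Fe arrays were below the floor, at intensities of 36.4 and 47.8, the spastic samples lay between, and the controls were highest, with no overlap. Spastic minus control was -0.88 (SE 0.19, adjusted p = 0.00969). Against B6C3Fe, which has only a bound, spastic cord was at least 3.99-fold higher (adjusted p = 0.0146), with measured means of 7.92 in spastic cord and the floor in B6C3Fe; this call was lost without sev (difference 2.13, adjusted p = 0.0545). B6C3Fe was lower than control, whose mean of 8.83 was at least 7.47-fold higher (adjusted p = 0.00807). By group, these levels run in the order of titled age. In the fit that treats B6C3Fe as a control and includes log2 of titled age, the spastic difference turned to 0.56 (SE 0.31, adjusted p = 0.254). The age term of that fit leans largely on the B6C3Fe sample, here at the floor.

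The other Stx3 probe sets were below the filter. Probe set 100498_g_at was at the floor on every spastic and both B6C3Fe arrays, and reached a mean of 6.39 in controls, which is at least 1.38-fold higher; in the fit with no filter, spastic minus control was -0.45 (adjusted p = 0.0466). Probe set 100497_at had means of 6.04 in spastic, 6.49 in B6C3Fe and 6.37 in control cord, and differed by -0.34 between spastic and control in that fit (adjusted p = 0.104). Near the floor, neither gives a usable size.

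Syp, the abundant membrane protein of small vesicles, had 11.31, 10.96, 11.77, 11.60 and 11.73 in the spastic samples, against 10.30 in B6C3Fe and 11.13, 10.65, 10.48 and 10.83 in the control samples. Spa2 lay below the 9-month female control, and the other spastic samples were above every control. The difference was 0.72 (SE 0.18, adjusted p = 0.0186), with means of 11.47 in spastic and 10.77 in control cord. It was lost without the 12-month female control (0.63, adjusted p = 0.0736) and without the 9-month male control (0.65, adjusted p = 0.0576). Spastic minus B6C3Fe was 1.27 (adjusted p = 0.0628), and passed without the 9-month female control (1.36, adjusted p = 0.0242) or without Spa2 (1.33, adjusted p = 0.0348).

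Syn2, which ties vesicles to each other and to the cytoskeleton, had 9.67, 10.20, 10.53, 10.15 and 10.15 in the spastic samples, against 10.83 in B6C3Fe and 10.12, 10.87, 10.81 and 11.05 in the control samples. The 9-month female control fell among the spastic samples; its array a read 9.30 and its array b 10.94. The difference was -0.53 (SE 0.17, adjusted p = 0.0444). It passed in 2 of the 9 leave-one-out fits, those without the 9-month female control and without Spa2; in the other fits it was -0.59 to -0.40, with adjusted p of 0.0512 to 0.161. It has the highest adjusted p of the 10 calls.

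Sncb, abundant in presynaptic terminals, had 12.17, 11.78, 12.19, 12.40 and 12.67 in the spastic samples, against 12.48 in B6C3Fe and 11.11, 11.63, 11.30 and 11.69 in the control samples. Spastic and B6C3Fe samples were all above the controls, though array b of the 12-month males read 12.58, where its partner read 10.81. The difference of spastic and control was 0.83 (SE 0.16, adjusted p = 0.00666), and that of spastic and B6C3Fe was -0.09 (adjusted p = 0.885). B6C3Fe minus control was 0.92 and did not pass (adjusted p = 0.17). As for Syt4, the younger groups lay together, here on the high side.

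**Figure D2:**
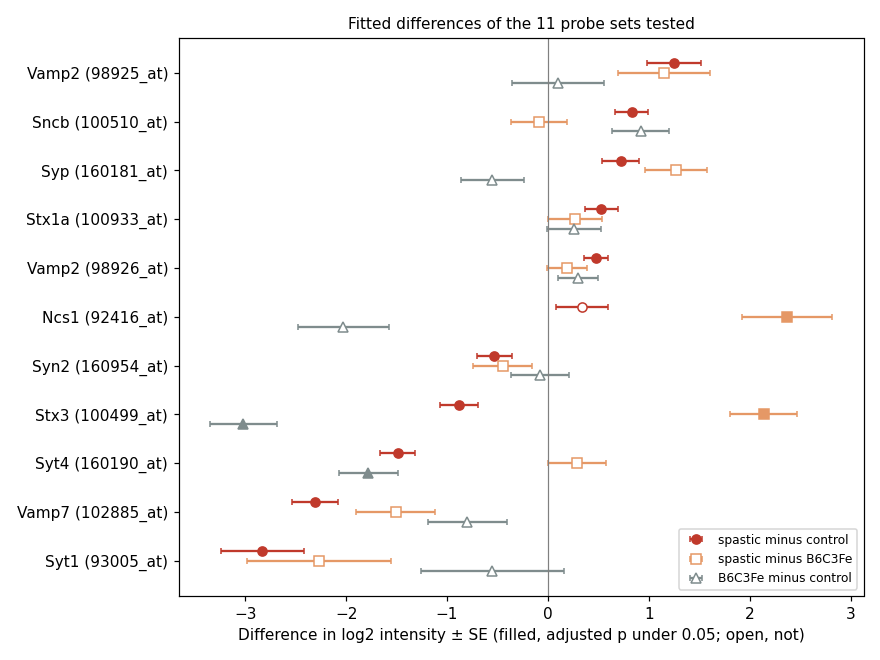
Fitted difference in log2 intensity with its SE (horizontal axis) for the 11 probe sets tested: spastic minus control (circles), spastic minus B6C3Fe (squares) and B6C3Fe minus control (triangles), filled where the adjusted p is under 0.05. The spastic minus control differences run from -2.83 for Syt1 to 1.25 for Vamp2 98925_at.

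Against B6C3Fe, 2 of the 11 probe sets passed, Stx3 and Ncs1, both higher in spastic cord (background 1.26% of all probe sets higher and 0.631% lower). Both passed the filter only through groups other than B6C3Fe. The group is 1 sample of 2 arrays and was assumed to vary like the other groups. Differences that did not pass were as large as -2.27 for Syt1 (SE 0.71, adjusted p = 0.126), -1.51 for Vamp7 (SE 0.39, adjusted p = 0.0793), 1.27 for Syp (SE 0.31, adjusted p = 0.0628) and 1.15 for Vamp2 98925_at (SE 0.46, adjusted p = 0.204).

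In B6C3Fe minus control, 2 probe sets passed, Stx3 and Syt4, both lower in B6C3Fe (background 0.295% lower and 0.0537% higher). Stx3 passed the filter only through groups other than B6C3Fe. Its call was lost with the floor at the 40th percentile (-1.24, adjusted p = 0.0621), and was kept in all 9 leave-one-out fits. Syt4 (difference -1.78, SE 0.29, adjusted p = 0.0463) was called in 2 of them, those without the 12-month male control and without sev; in the other 7 it was -1.87 to -1.71 with adjusted p of 0.0549 to 0.101. The 3 comparisons share samples, so their values are set side by side and not counted as separate support.

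Among the controls, 12 minus 9 months gave 0 calls in limma for the 11 probe sets, as for all probe sets (0% higher and 0% lower; 24 of 12422 were called with no filter, none of them members). At an unadjusted limma p under 0.05 there were 402 of all 7453 probe sets, 2 of them members: Syt1 at 1.19 and Vamp2 98925_at at 0.84, each with an adjusted p of 0.886. In both, the 9-month mean is lowered by array a of the females. Each age is 2 samples, so this comparison has little precision.

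Within the spastic group, 5 samples of differing titles allow only a description. The sample titled sev had the highest value of the group for Syt4 (9.14), Syt1 (7.32) and Syn2 (10.53), and for Stx1a it shared the top with 3+ (9.05). The sample titled M, the oldest, had the highest Sncb (12.67) and the lowest Vamp7 (6.27) and Ncs1 (8.40). Spa2 had the lowest Syp (10.96), Sncb (11.78) and both Vamp2 values (9.90 and 12.60). None of these orders was tested.

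**Figure D3:**
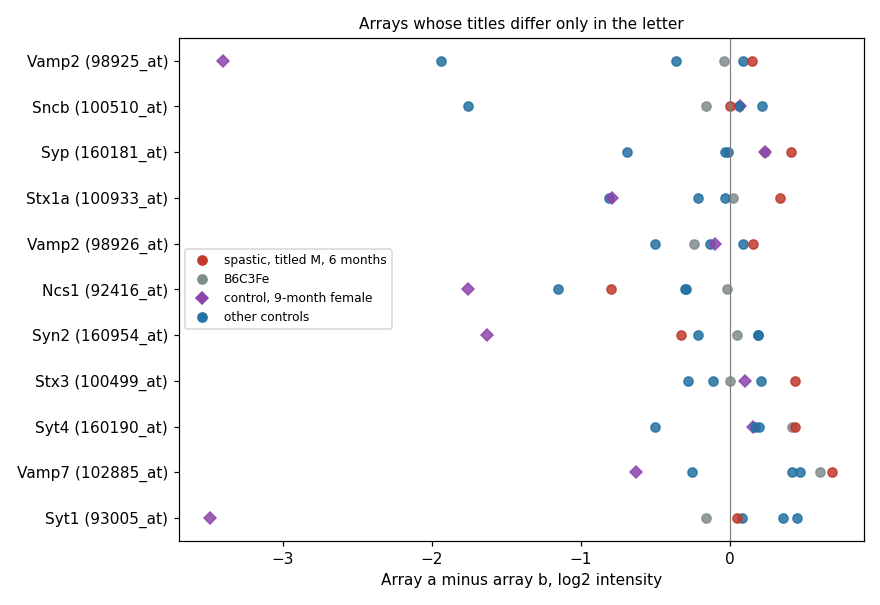
Difference in log2 intensity of array a minus array b (horizontal axis) for the 6 samples measured on 2 arrays, per probe set; diamonds mark the 9-month female controls. The diamonds of Syt1 and Vamp2 98925_at lie at -3.49 and -3.40.

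The pairs of arrays that share a title show how far 1 array can move a member. In the 9-month female controls, array a minus array b was -3.49 for Syt1, -3.40 for Vamp2 98925_at, -1.76 for Ncs1 and -1.63 for Syn2. Over all probe sets tested, the median absolute difference in that pair was 0.288, and 1.85% differed by more than 2. In the 12-month male controls the differences were -1.94 for Vamp2 98925_at, -1.76 for Sncb and -1.15 for Ncs1. Syt4, Stx3 100499_at and Vamp2 98926_at stayed within 0.50 in all 6 pairs.

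Of 4 control transcripts used to judge RNA integrity, Pcx alone had a higher mean 3-prime to 5-prime ratio in spastic than in control samples. The means of Actb, Gapdh and Tfrc were lower, and the B6C3Fe sample stood apart for Actb. The log2 ratio of 3-prime to 5-prime signal of Pcx was 2.38 ± 0.38 in spastic samples (SD, n = 5), 1.78 in the B6C3Fe sample and 1.73 ± 0.22 in control samples (SD, n = 4). The difference of 0.648 had p = 0.0238 in a 2-sided exact permutation test, where the smallest p possible is 0.00794, and no adjustment over the 4 ratios was made. The differences were -0.323 for Actb (p = 0.302), -0.065 for Gapdh (p = 0.77) and -0.508 for Tfrc (p = 0.222) in the same exact test. The Actb ratio was -2.25 in the B6C3Fe sample, against a lowest spastic value of -0.56 and a lowest control value of -0.29. Its part in the Stx3, Ncs1 and Syt4 differences that involve B6C3Fe was not tested. With the Pcx ratio as a covariate, 2 of the 11 probe sets were called, Syt4 (-1.53, adjusted p = 0.0448) and Vamp7 (-1.86, adjusted p = 0.0448); Syt1 was -1.65 (adjusted p = 0.111). Over all probe sets that fit called 36, against 1462 without the covariate.

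Leaving out samples by titled sex also cost calls, and the part of sex itself in this was not tested. Without the 2 spastic samples titled male, 6 of the 11 probe sets were called and 408 of all. The spastic minus control calls lost were Stx1a (0.64, adjusted p = 0.131), Syn2 (-0.46, adjusted p = 0.248), Syp (0.53, adjusted p = 0.221) and Vamp2 98926_at (0.42, adjusted p = 0.156). Against B6C3Fe, Stx3 (1.71, adjusted p = 0.226) and Ncs1 (2.81, adjusted p = 0.195) lost theirs. With samples titled female alone, 2 were called, again Syt4 (-1.84, adjusted p = 0.011) and Vamp7 (-2.25, adjusted p = 0.0355), and 136 of all; Syt1 was -2.33 (adjusted p = 0.0542). These fits have fewer samples. Syt4 and Vamp7 were thus the members called in both the female-only fit and the fit with the Pcx ratio.

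Over the alternatives other than leaving out a sample, the calls of the other members held in part. Syt1 was called in 16 of 18, Syt4 in 18 of 19, Sncb in 16 of 19, Syp in 15 of 19, Stx3 100499_at in 14 of 18, Vamp2 98925_at in 14 of 18, Vamp2 98926_at in 15 of 19, Stx1a in 10 of 18 and Syn2 in 8 of 19. Each of these but Syt4 lost its call in the female-only fit and with the Pcx ratio. Sncb, Vamp2 98926_at, Stx1a, Stx3 and Syn2 also lost theirs, like Syt4, with titled age in the fit. Stx3 100499_at was the member that changed direction. Ncs1, not called as reported, was called higher in spastic cord with titled age in the fit (1.25, adjusted p = 0.047). Changes in that fit lean largely on the B6C3Fe sample, in which age and stock cannot be told apart.

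**Figure D4:**
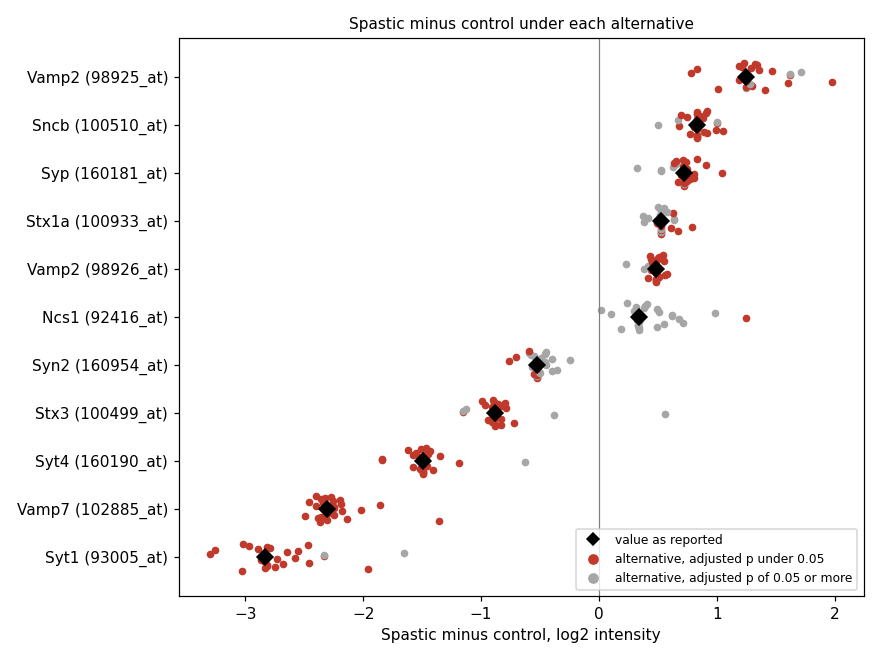
Spastic minus control difference in log2 intensity (horizontal axis) of each of the 11 probe sets as reported (black diamonds) and under each alternative (dots, red where the adjusted p is under 0.05 and grey where not). One dot of Stx3 100499_at lies right of 0, at 0.56, in the fit that treats B6C3Fe as a control and includes log2 of age.

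Markers of other cell types also differed between the groups. The summed endothelial markers were 8035 to 10307 on spastic arrays, 4332 to 4438 on B6C3Fe arrays and 3483 to 4906 on control arrays, with 7 of 9 probe sets tested higher in spastic than in control cord and 1 endothelial probe set at the floor on all arrays. The summed astrocyte markers were 41699 to 73318 on spastic, 66750 to 68119 on B6C3Fe and 54728 to 74710 on control arrays, with 4 of 12 probe sets lower and 1 at the floor on all arrays. The summed oligodendrocyte markers were 67477 to 90131 on spastic, 101084 to 105769 on B6C3Fe and 48633 to 88828 on control arrays. Of 13 probe sets tested, 3 were lower in spastic than in B6C3Fe cord, and 1 was higher and 1 lower than in control cord. The 2 blood probe sets summed to 8074 to 25441 on spastic, 3324 to 5548 on B6C3Fe and 14869 to 19400 on control arrays. Of these, Hba-a1 was 3.06 higher in spastic than in B6C3Fe cord (adjusted p = 0.0323). The other blood probe set was lower in spastic than in B6C3Fe cord and did not pass, and the median of the 2 was 0.65. The summed skeletal muscle markers were 9454 to 20132 on spastic, 14435 to 15185 on B6C3Fe and 14426 to 21561 on control arrays, with 3 of 12 probe sets lower in spastic than in control cord. The summed microglial markers were 9197 to 15495 on spastic, 13014 to 13469 on B6C3Fe and 12410 to 16686 on control arrays, with 2 of 9 lower in spastic than in control cord. Over all probe sets tested, 8.98% were higher and 10.6% lower in spastic than in control cord. Against B6C3Fe these shares were 1.26% higher and 0.631% lower. The part of these markers in the members' differences was not tested.

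Other genes of the vesicle cycle were counted by list, in spastic minus control, where 8.98% of all probe sets rose and 10.6% fell. The shares of the SNARE and membrane lists that fell are near that background, so their counts say nothing particular of the lists. Of 35 probe sets of SNAREs and their partners (27 genes), 1 rose and 4 fell, with a median difference of -0.06. Those that fell were Napb, which helps take apart used SNARE complexes (-1.56 and -0.57 on its 2 probe sets), Vamp4, a SNARE of the Golgi and endosomes (-0.98 on 1 of 2 probe sets, -0.06 on the other), and Vamp3, a SNARE of recycling endosomes (-0.63). Stx5a, a Golgi syntaxin, rose by 0.36. Snap25, the plasma membrane partner of Stx1a, had a difference of -0.11 (SE 0.14, adjusted p = 0.615). Snap25 thus did not pass in either direction while its partners Stx1a and Vamp2 were called higher; the difference between these genes was not tested.

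Of 21 probe sets of vesicle membrane, synaptotagmin and active zone genes (15 genes), 2 rose and 2 fell, with a median of 0.00. Syt5, another synaptotagmin, rose by 0.92 and Scamp3, a carrier membrane protein, by 0.53; Dnajc5, the cysteine string protein that chaperones Snap25, fell (-0.83), as did Sypl, a relative of Syp (-0.57). Of 24 probe sets for vesicle retrieval (19 genes), 5 rose and 4 fell, with a median of 0.16. The adaptor subunits Ap2a1 (0.72), Ap2a2 (0.68, with -0.11 on its other probe set) and Ap2m1 (0.61, with 0.20 on its other probe set) rose, as did Pacsin1 (0.51), which binds dynamin. Eps15 (-0.91, with -0.09 on its other probe set), Synj2 (-0.73), Snap91 (-0.36) and the clathrin heavy chain Cltc (-0.36) fell.

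Of 6 probe sets of other neuronal calcium sensors, 0 passed in limma. At an unadjusted limma p under 0.05 there were 0, against 2556 of all 7453 probe sets tested. Ncs1 itself did not pass either. Both vesicular transporters tested rose: Slc18a3, which loads acetylcholine into vesicles, by 2.05 (SE 0.17, adjusted p = 0.000372), and Slc32a1, which loads GABA and glycine, by 0.65 (SE 0.14, adjusted p = 0.0112). Slc18a3 was also higher in spastic than in B6C3Fe cord, by 3.44 (SE 0.29, adjusted p = 0.00089). Against B6C3Fe the other lists gave 1 lower probe set among the SNAREs (Napb, -2.43), 1 higher among the membrane proteins (Scamp1, 0.76) and 1 higher in retrieval (Ap2a2, 1.08). In B6C3Fe minus control these 5 lists gave 0 calls in limma, with 0 to 9 probe sets per list at an unadjusted p under 0.05. Over all 7453 probe sets tested, 1093 had such a p in that comparison.

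**Figure D5:**
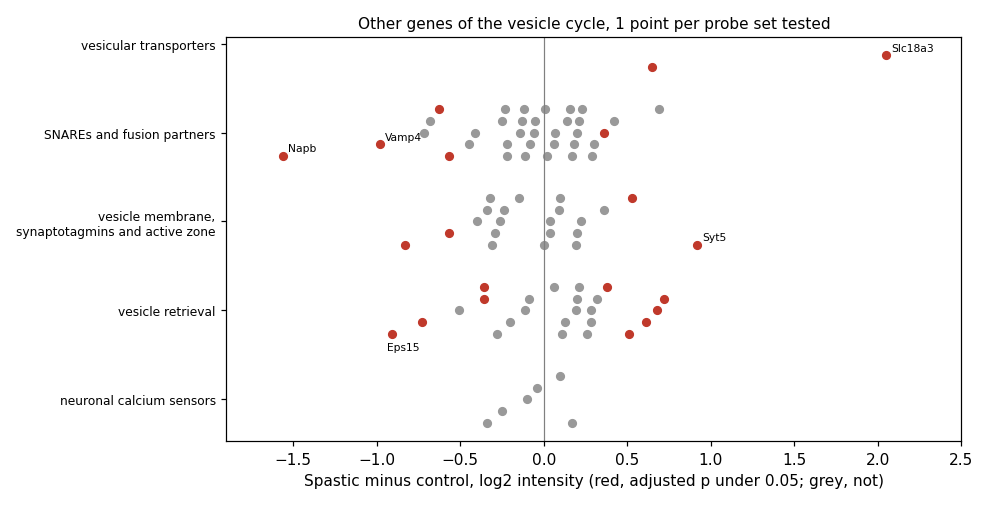
Spastic minus control difference in log2 intensity (horizontal axis) of each tested probe set of 5 lists of the vesicle cycle (vertical groups), red where the adjusted p is under 0.05 and grey where not. The point farthest right is Slc18a3 at 2.05, and the point farthest left is a Napb probe set at -1.56.

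The genes whose log2 values ran most like a member's over the 16 arrays were found by Pearson's r, as a description; the arrays share their groups, and some share a title. For Syt1 they were Tgoln1 (r = 0.987), Tomm70a (0.982) and Rnf13 (0.98), with spastic minus control differences of -1.65, -1.73 and -2.11. For Vamp7 they were Tbc1d15 (r = 0.975), Zfp930 (0.969) and Ogn (0.967). For Syt4 they were Pls3 (r = 0.966), Ube2e1 (0.951) and Rit2 (0.947). For Vamp2 98925_at they were Atp6v0a1 (r = 0.965), Bag6 (0.961) and Atp1b2 (0.954), and for Sncb Zfp385a (0.936), Rnf208 (0.909) and Psme3 (0.89). The first of the list had r of 0.897 for Stx1a (Gpaa1), 0.936 for Stx3 100499_at (Pla2g12a), 0.894 for Syp (Fbxo21), 0.936 for Syn2 (Dkk3) and 0.925 for Vamp2 98926_at (Sez6l).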

How the data were processed

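The members, gene lists, tests and alternatives were chosen with earlier results of these data known. Per the file headers and values, the deposited table holds 1 linear intensity per probe set and array; the authors' intensities have a mean of 800.4 to 800.5 on every array after trimming 2% at each end, and were not normalized again. The sources used here do not give the software that made them. The median intensity per array was 289 to 383.6, and the number of arrays limits the precision.

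Values under the 20th percentile of all values, 60.9, were raised to it before log2, which understates differences close to it. Control probe sets (66) did not enter. Probe sets were named from the platform annotation; 10833 have 1 symbol, 396 several and 1193 none. Testing required a mean log2 value above the 40th percentile of such means, 7.62, and this left 7453 (6720 with 1 symbol), each tested on its own. The titles gave group (Ctr taken as control, Spa as spastic), sex, age and letter; sev and the M of Spa-M were left as they stand. Arrays titled alike except for the letter were combined by their mean into 10 samples, 6 of them of 2 arrays, and within these the consensus correlation was 0.15.

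Differences were fitted with limma 3.58.1 in R 4.3.3 (lmFit, then eBayes with trend), on group and titled sex, all samples sharing 1 estimate of the spread, 2-sided, with Benjamini-Hochberg adjustment over all probe sets tested and calls at 0.05. In it the 2 spastic samples titled male were coded as male, although their Xist and Eif2s3y levels were those of females. No alternative recoded them. The fit was tested on simulated data. The months comparison came from a second fit with the controls split by age. All member probe sets are named, with up to 4 called probe sets per list and direction in spastic minus control, and the 3 genes of highest r per called member. Genes named outside that rule (Snap25, Scamp1, Hba-a1 and neuronal markers) were chosen after their values were seen. Alternatives covered the floor, the filter, quantile normalization, how arrays of a title are treated, 1 probe set per gene, the trend, the sex term, the B6C3Fe arrays, titled age, titled sex, 1 control array, the Pcx ratio, and leaving out each sample. Figures were drawn with matplotlib 3.10.9.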

Additional observations from a re-analysis of the deposited data

How the results depend on the processing

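For spastic minus control, 10 of the 11 probe sets were called as reported. The count was 6 with the filter at the 60th percentile (where 6 were tested), 5 when B6C3Fe counted as control and log2 of age was a term, 6 when the spastic samples titled male were dropped, 2 for female titles alone and 2 with the Pcx covariate; leaving out 1 sample gave 6 to 10, with 6 without the 12-month female control. With no filter it was 7 of 14, and Stx1a, Syp, Syn2 and Vamp2 98925_at were lost (adjusted p of 0.055 to 0.122); it was 7 with the sample as a random block (Stx1a, Syn2 and Vamp2 98925_at lost, 0.0504 to 0.123) and 8 with no sex term (Stx1a and Syn2 lost, 0.0554 and 0.0602). Stx3 100499_at turned to 0.56 in the fit with age. For spastic minus B6C3Fe, 2 were called as reported, 0 with the floor at the 40th percentile, the filter at the 60th, only the 1a arrays or no spastic samples titled male, 1 with no filter or the Pcx ratio, 4 when each array counted as a replicate, 4 when the sample was a random block, and 6 when array a of the 9-month females was dropped; leaving out 1 sample gave 0 (without sev) to 4 (without the 9-month female control). For B6C3Fe minus control, 2 were called as reported and 1 with the floor at the 40th percentile, the filter at the 60th, only the 1a arrays or eBayes without a trend; it was 3, by a call of Ncs1, with quantile normalization, each array as a replicate, the random block, array a of the 9-month females dropped or the Pcx covariate (adjusted p of 0.0126 to 0.0419). Leaving out 1 sample gave 1 to 2. The months comparison gave 0 member calls in each alternative that could be fitted, and 0 to 24 calls over all probe sets. The letters a and b share no stated batch; with the letter as a replicate block, 9 were called in spastic minus control, 4 in spastic minus B6C3Fe and 3 in B6C3Fe minus control. The Pcx difference was 0.499 to 0.744 when 1 sample was left out, and 7 of these 9 exact tests no longer passed. Over all probe sets, spastic minus control called 1462 as reported, 2206 when each array counted as a replicate, 784 with age, 795 with only the 1a arrays, and 816 to 1402 when 1 sample was left out. As reported, spastic minus control called 19.6% of all. The share was 9.94% with no filter, 23.9% with the filter at the 60th percentile and 23.6% with the random block. Spastic minus B6C3Fe called 1.89% as reported and 9.27% with each array as a replicate. With the random block it called 5.14%, and without array a of the 9-month females 3.72%. B6C3Fe minus control called 0.349% as reported and 7.54% with each array as a replicate. Except where fewer samples or probe sets entered, the cause of these shifts was not tested. Signal near the floor limits Stx3, Vamp7 and Syt1, whose differences are understated there. It also limits the comparisons of Ncs1 with B6C3Fe.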
